A study of Mus musculus with 24 samples.

Results

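Mptx1, Mptx2, Ang4 and Sycn encode secreted proteins of the gut epithelium, and their RNA was followed across 24 libraries of sorted intestinal epithelium. The 4 genes, of 24421 in the deposited table, were chosen by symbol because Mptx1, Ang4 and Sycn had been seen to be low in the colon of the KO mice. Their colon values are therefore given as a description with no test, and tests are given only for the ileum, which took no part in the choice. The name under which they were grouped, colonic secreted defence genes, held by tissue level for 3 of them in the WT mice. Mptx2 was a gene of the ileum and barely detected in colon. Ang4 was higher in colon than in ileum in 5 of 5 WT mice but in 1 of 7 KO mice. Whether any of the 4 acts in defence here was not tested.

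Each library held RNA of cells sorted as Villin-tomato positive and CD45 negative, that is, epithelial cells marked by a red reporter under the Villin promoter and depleted of leukocytes. The colon and the ileum of each of 12 C57BL/6 mice aged 8 to 14 weeks gave 1 library each. The KO late group (3 mice) was taken 8 weeks and the KO early group (4 mice) 2 weeks post chimerism. The WT irradiated group (2 mice) was taken 8 weeks post chimerism, and the WT non irradiated group (3 mice) is labelled as not treated. The series is titled for IL-10Rα-deficient gut macrophages and an epithelial response to IL-22, while the sample labels say only KO. In a marrow chimera the gut epithelium stays that of the host. KO early has no WT group of its own week. In KO early against WT irradiated, the KO and the time since transplantation therefore cannot be told apart.

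Values are reads per gene divided by a size factor of the library, called normalised reads here. The libraries held 8.32 to 18.7 M reads (median 13.2 M), and 1 read was worth 0.698 to 2.22 normalised reads. The summed colonocyte markers were 38492 to 162650 normalised reads in the colon libraries and 3818 to 11753 in the ileum libraries, and the summed ileal enterocyte markers were 5713 to 16252 in colon and 185490 to 451660 in ileum, so no library went against its tissue label. In bulk RNA of this kind, fewer cells of a type and less RNA per cell cannot be told apart.

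The pentraxins are a family of secreted pattern-recognition proteins to which C-reactive protein and serum amyloid P belong. Mptx1 and Mptx2 encode the mucosal pentraxins, the members of that family made by the gut, and Mptx2 is known from Paneth cells of the mouse small intestine. Ang4 encodes angiogenin 4, a secreted ribonuclease of the RNase A family with microbicidal activity, first described in mouse Paneth cells and also made by colonic goblet cells. Sycn encodes syncollin, a protein of the zymogen granule membrane that is best known from the exocrine pancreas, where it takes part in granule exocytosis. IL-22 acts on epithelial cells through a receptor that signals by STAT3, a transcription factor known to switch on several antimicrobial genes.

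The 2 mucosal pentraxin genes are near copies with opposite tissues, so the 250 bases before each start site are shown, with the 6 runs of at least 12 bases that both hold in capitals. The sequences are from RefSeq on build GRCm38.p6, 5′ to 3′ on the strand of the gene. The window of Mptx1 is chr1:174330268-174330517 on the plus strand and that of Mptx2 is chr1:173277757-173278006 on the minus strand.
Mptx1: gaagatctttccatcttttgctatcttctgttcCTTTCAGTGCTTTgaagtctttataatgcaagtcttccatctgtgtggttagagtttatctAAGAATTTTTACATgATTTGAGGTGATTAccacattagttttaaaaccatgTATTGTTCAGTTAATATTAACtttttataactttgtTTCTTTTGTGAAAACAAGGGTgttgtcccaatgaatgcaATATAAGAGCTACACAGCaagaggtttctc
Mptx2: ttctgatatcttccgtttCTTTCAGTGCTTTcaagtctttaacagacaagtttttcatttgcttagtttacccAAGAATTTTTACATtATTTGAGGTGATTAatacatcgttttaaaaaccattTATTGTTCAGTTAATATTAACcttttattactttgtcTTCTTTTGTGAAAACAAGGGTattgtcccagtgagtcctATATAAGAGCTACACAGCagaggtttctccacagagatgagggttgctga
Of 228 aligned bases in these windows, 198 (86.8%) were identical. The windows of other pairs (Mptx1 with Ang4, Mptx1 with Sycn, and Ang4 with Sycn) were 55.8% to 58.7% identical in the same kind of alignment. The last shared run holds TATAA, the core of a TATA box, which begins 29 bases before the start site of Mptx1 and 49 bases before that of Mptx2. On either strand, TATAA was found in 22.8% of 32851 promoter windows of this length in RefSeq, and in neither the window of Ang4 nor that of Sycn. Other forms of a TATA box were not searched for, so this does not say that Ang4 or Sycn lacks one. TTCNNNGAA, the pattern bound by STAT factors, is its own reverse complement, was found in 7.02% of all windows, and among the 4 genes occurred only in Ang4, beginning 192 bases before its start. AGATAA, a pattern of GATA factors, was found on either strand in 9.99% of windows, and in those of Mptx1 and Sycn. CCATAAA of CDX factors (2.43% of windows), CAAAGTCCA of HNF4 (0.384%) and TGTTTAC of forkhead factors (3.17%) occurred in none of the 4 windows. A match describes letters and not a bound site.

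The likeness of the mucosal pentraxins extends to their transcripts, which were identical at 734 of 794 aligned bases (92.4%). Of the 50-base windows of each transcript, the length of the reads, 134 were shared by both genes, of 750 windows in Mptx1 and 745 in Mptx2. Ang4 shared 31 of its 660 windows (4.70%) with Ang2 and Ang5, and Sycn shared none of 507. The labels and headers do not say how reads from shared windows were assigned, so a low value of a mucosal pentraxin beside a high value of its copy is uncertain.

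Mptx1 was among the most abundant transcripts of the WT colon, and among the colon groups its mean was lowest in KO late. It had 83.0, 287.3 and 198.2 normalised reads in the 3 KO late colons. The 4 KO early colons, mice 100, 117, 118 and 120 in that order, had 4895.0, 6781.0, 179.4 and 4493.7. The WT irradiated colons had 21737.5 and 21974.2, and the WT non irradiated colons had 53567.8, 25995.6 and 30330.1. Every KO colon was thus below every WT colon, and mouse 118 alone of the KO early mice lay inside the KO late range. The group means were 189.5 ± 102 in KO late (SD, n = 3), 4087 ± 2790 in KO early (n = 4), 21856 ± 167 in WT irradiated (n = 2) and 36631 ± 14827 (n = 3) in WT non irradiated colons. The WT irradiated mean was 115 times the KO late mean and 5.35 times the KO early mean. On the log2(value + 1) scale the fitted difference from WT irradiated was -7.02 ± 1.13 (SE) in KO late and -3.26 ± 1.07 in KO early, and -2.04 in KO early without mouse 118.

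Per kilobase of transcript, Mptx1 ranked between 2 and 8 among 20017 genes with a known length in the WT colon libraries. In KO late colon it ranked between 1609 and 5419 and in KO early colon between 19 and 3094, the last in mouse 118. WT irradiated colons were both below the 3 WT non irradiated colons, a difference of -0.67 ± 1.13 in log2. Such a gap between ranges, in that direction, was seen for 2.23% of 19145 genes tested.

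Ang4 had the same order of group means as Mptx1 in colon, and per kilobase of transcript averaged 8051 normalised reads in WT non irradiated colon, where Mptx1 averaged 45846. It had 104.1, 28.3 and 47.3 normalised reads in KO late colons. The KO early colons had 429.2, 828.7, 39.6 and 210.8 in the same mouse order. The WT irradiated colons had 4765.4 and 2686.1, and the WT non irradiated colons 8222.3, 4217.6 and 4684.2. No KO colon reached the lowest WT colon, and mouse 118 was again inside the KO late range. Group means were 59.9 ± 39.4 in KO late, 377 ± 341 in KO early, 3726 ± 1470 in WT irradiated and 5708 ± 2190 in WT non irradiated colon. The fitted log2 difference from WT irradiated was -6.08 ± 0.91 in KO late and -3.93 ± 0.86 in KO early. Without mouse 118 the KO early difference was -3.08, and without mouse 117 it was -4.53.

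Sycn was the lowest of the 3 colonic genes per kilobase, at a mean of 1400 normalised reads in WT non irradiated colon, and varied most among WT mice. It had 27.3, 17.5 and 33.5 normalised reads in KO late colons. The KO early colons had 586.1, 72.0, 90.9 and 233.1. The WT irradiated colons had 1900.4 and 368.8, and the WT non irradiated colons 934.0, 1131.7 and 270.0. The KO late values were below all others, while the KO early values overlapped both WT groups. The means were 26.1 ± 8.07 in KO late, 246 ± 238 in KO early, 1135 ± 1083 in WT irradiated and 779 ± 451 in WT non irradiated colon. The fitted log2 difference of KO late from WT irradiated was -5.00 ± 0.86, which became -3.82 without mouse 59 and -6.18 without mouse 61. The difference of KO early from WT irradiated was -2.27 ± 0.81, and -1.09 without mouse 59 and -3.45 without mouse 61. In mouse 118, which was low in Mptx1 and Ang4, Sycn was not the lowest of its group.

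Mptx2 stood apart from the other 3 genes in colon. It had 5.0, 6.7 and 4.9 normalised reads in KO late colons, 6.7, 3.0, 28.7 and 2.1 in KO early, 4.1 and 5.2 in WT irradiated and 26.8, 3.1 and 3.2 in WT non irradiated colons. The groups overlapped, at a level of a few reads per library in most. The highest of the KO early colons was mouse 118, the one with the least Mptx1. The other raised colon, WT non irradiated mouse 72 at 26.8, held the most Mptx1 of any colon (53567.8). The fitted differences from WT irradiated were 0.21 ± 0.95 in KO late and 0.38 ± 0.90 in KO early colon, and both changed sign under some alternatives.

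Ranges that did not overlap put 3 of the 4 genes (Mptx1, Ang4 and Sycn) lower in KO late than in WT irradiated colon, where 18.5% of all 19145 genes tested did the same. For KO early against WT irradiated colon it was 2 of 4 (Mptx1 and Ang4), against 9.38% of all genes. Those 2 were also lower in all 7 KO colons than in all 5 WT colons, as were 2.39% of genes. Since the genes were picked for being low there, these counts are given without a reading. KO late against KO early colon gave fitted log2 differences of -3.75 ± 0.94 for Mptx1, -2.15 ± 0.76 for Ang4, -2.73 ± 0.72 for Sycn and -0.17 ± 0.79 for Mptx2. In that comparison Sycn was the 1 gene of the 4 whose ranges did not overlap, against 6.47% of all genes in that direction.

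**Figure D1:**
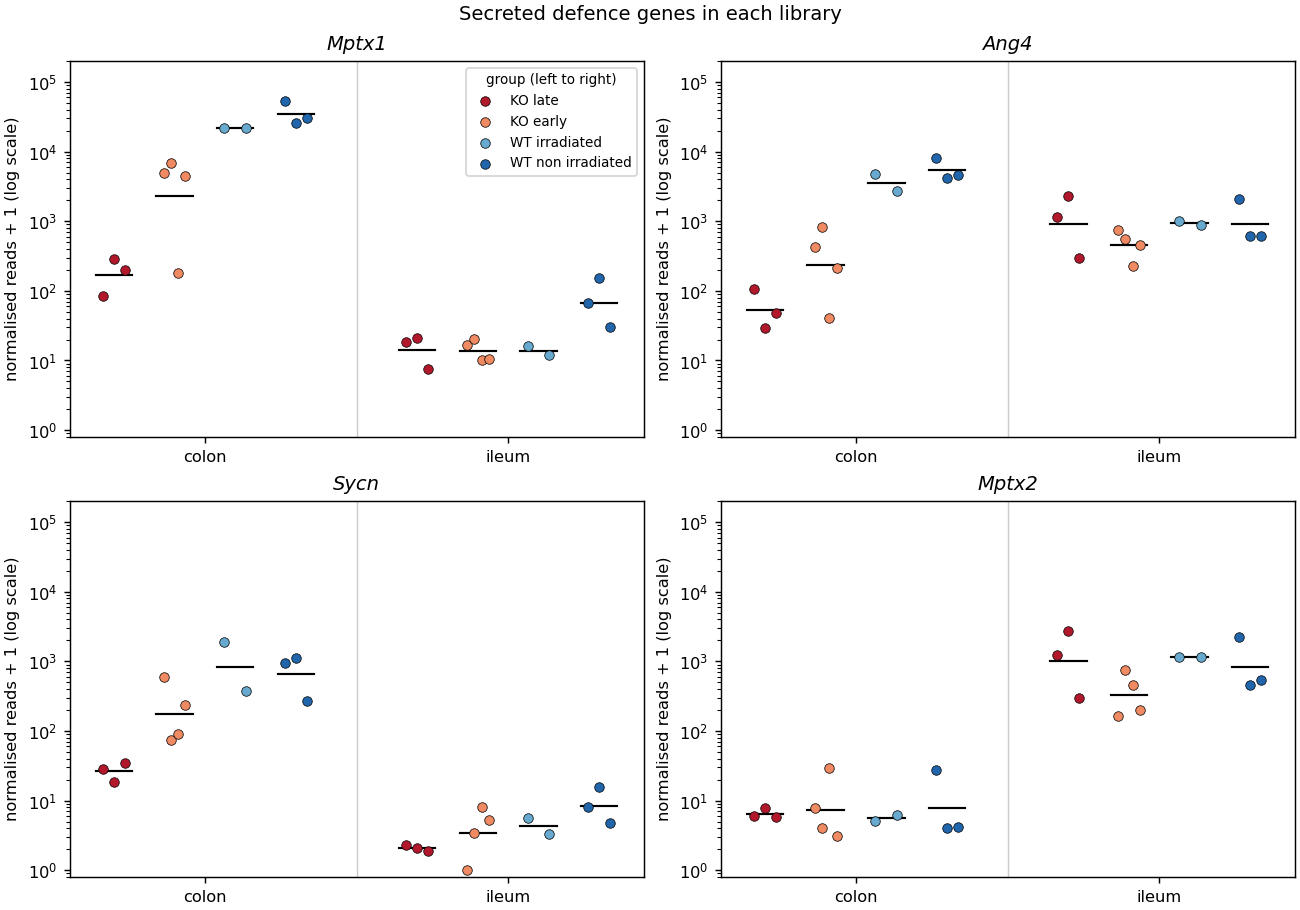
Normalised reads plus 1 (log axis) of Mptx1, Mptx2, Ang4 and Sycn in each of the 24 libraries, by tissue and group, with the mean of the log values of each group as a bar. Among the colon groups, Mptx1, Ang4 and Sycn have their lowest means in KO late, Mptx2 is near the floor in every colon group and between 161.8 and 2729.5 in ileum, and Mptx1 of mouse 118 lies at 179.4 among KO early colons that otherwise reach 4493.7 or more.

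Several library properties moved with the colon groups. S100a8, a calprotectin subunit of neutrophils and of inflamed epithelium, had 1415.8, 6615.3 and 4548.9 normalised reads in KO late colons, while the KO early colons had 3945.2 in mouse 118 and at most 240.1 in the other 3. The 5 WT colons had between 0.8 and 28.3. The 12 leukocyte markers summed to 3617 to 10368 in KO late colons, 1492 to 8294 in KO early, 1219 to 1630 in WT irradiated and 1275 to 2703 in WT non irradiated colons. S100a9 was at 0 in 1 WT irradiated colon, and 1 of the other markers was at 0 in a colon of that group as well. Without S100a8 and S100a9, the calprotectin pair, left out after seeing the data, the other 10 summed to 1738 to 2387 in KO late, 1375 to 3852 in KO early, 1156 to 1629 in WT irradiated and 1270 to 2696 in WT non irradiated colons, ranges that overlapped between KO late and WT non irradiated mice. Ly6g, the highest of these 10 by mean over the 24 libraries, averaged 1381 in KO late and 2155 in KO early colon. It averaged 967 in WT irradiated and 1452 in WT non irradiated colon, so these sums rest largely on 1 gene. In KO late against WT irradiated colon the 12 leukocyte markers had a median log2 difference of 0.68, against -0.01 over all genes tested. That of the 10 stromal and endothelial genes was 0.98. Reads in olfactory and vomeronasal receptor genes were summed as a measure of background, and whether any came from the epithelium was not tested. They came to 752 to 1052 per M reads in KO late, 429 to 693 in KO early, 234 to 592 in WT irradiated and 232 to 682 in WT non irradiated colons. With that receptor level as a covariate, an alternative chosen after seeing the data, the fitted KO late difference of Sycn from WT irradiated was -2.77, and Mptx1 and Ang4 kept differences between -7.69 and -5.65 under all alternatives run. Every KO late colon was above every other colon in that level, so the covariate and the KO late group cannot be fully told apart. The part of these properties in the colon values was not tested.

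In the ileum, 3 of the 4 genes passed the filter on low values and were tested, and none passed an adjusted p under 0.05 in any of 4 comparisons by limma. The background was the same, 0.0% of 19122 genes called in each of them. At an unadjusted p under 0.05 limma gave 0 of the 3 genes in KO late against WT irradiated, 1 in KO early against WT irradiated, 1 in KO late against KO early and 1 in WT irradiated against WT non irradiated ileum. Over all genes those counts were 157, 4752, 4697 and 187. edgeR and DESeq2 also called none of the 3. Over all genes edgeR called 0.0% in each comparison. DESeq2 called 0.0% in KO late against WT irradiated, 0.999% in KO early against WT irradiated, 7.02% in KO late against KO early and 0.0105% in WT irradiated against WT non irradiated ileum.

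Mptx2 was the pentraxin of the ileum. It had 1246.9, 2729.5 and 300.1 normalised reads in KO late ileum and 161.8, 743.6, 456.4 and 198.3 in KO early ileum. The WT irradiated ilea had 1158.1 and 1145.1, and the WT non irradiated ilea 2233.7, 459.3 and 538.0. The KO late range enclosed the WT irradiated pair, whereas every KO early ileum was below that pair and overlapped the WT non irradiated mice. The log2 difference from WT irradiated was -0.19 ± 0.85 in KO late (limma adjusted p = 1.00) and -1.83 ± 0.81 in KO early (limma adjusted p = 0.187). The difference of KO late from KO early, 1.64 ± 0.71 (limma adjusted p = 0.183), missed the threshold as well.

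Ang4 was also found in ileum, at a mean of 1557 normalised reads per kilobase in the WT non irradiated group, where Mptx2 had 1356. It had 1132.1, 2343.4 and 300.1 normalised reads in KO late ileum and 742.6, 551.4, 229.7 and 456.1 in KO early ileum. The WT irradiated ilea had 1024.3 and 892.2, and the WT non irradiated ilea 2087.9, 611.4 and 611.8. The KO late mice again enclosed the WT irradiated pair and the KO early mice lay below it. The log2 difference from WT irradiated was -0.04 ± 0.72 in KO late (limma adjusted p = 1.00) and -1.07 ± 0.69 in KO early (limma adjusted p = 0.314). That of KO late from KO early was 1.02 ± 0.61 (limma adjusted p = 0.291). The log2 difference of Ang4 between KO late and WT irradiated colon, -6.08, stood beside one of -0.04 ± 0.72 in the ileum of the same mice. Since the low colon values chose the gene, this contrast is a description and was not tested.

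Non-overlapping ranges put 2 of the 3 tested genes, Mptx2 and Ang4, lower in KO early than in WT irradiated ileum, where 16.9% of all genes did so. The Paneth cell markers, 13 of 14 of which were tested in ileum, had a median log2 difference of -1.96 in the same comparison, against -0.09 over all genes tested, with none called. Their sum was 6580 to 37799 normalised reads in KO late, 3177 to 8211 in KO early, 18256 to 20076 in WT irradiated and 11956 to 43408 in WT non irradiated ileum. Other properties moved in that comparison too. The medians were -0.93 for 12 goblet cell genes, 1.01 for 10 stromal and endothelial genes and 0.55 for the 10 leukocyte markers tested, with none called by limma or edgeR. The goblet cell genes summed to 61460 to 178960 normalised reads in KO early ileum, against 144070 to 377570 in WT irradiated ileum. Rn45s, the ribosomal RNA precursor gene, took 3.81% to 29.4% of reads in KO early ileum, against 0.130% to 0.549% in WT irradiated ileum. The part of these markers and of Rn45s in the values of Mptx2 and Ang4 was not tested.

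Mptx1 and Sycn were low in every ileum. Mptx1 had 17.4, 20.1 and 6.6 normalised reads in KO late ilea, 15.5, 19.5, 9.1 and 9.4 in KO early, 15.0 and 10.9 in WT irradiated and 64.9, 152.1 and 29.5 in WT non irradiated ileum. The 3 WT non irradiated mice stood above all 9 others, which overlapped. WT irradiated minus WT non irradiated was -2.29 ± 0.64 in log2 (limma adjusted p = 1.00), so it did not pass over all genes. A gap between ranges in that direction was seen for 4.15% of the genes tested in ileum. The KO groups differed from WT irradiated by 0.06 ± 0.64 in KO late (limma adjusted p = 1.00) and -0.01 ± 0.60 in KO early (limma adjusted p = 0.994). Mptx1 reads in ileum carry the uncertainty of the windows shared with Mptx2, which had 3.02 to 136 times as many reads in those libraries.

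Sycn had 1.3, 1.1 and 0.9 normalised reads in KO late ilea, 0.0, 2.4, 7.1 and 4.2 in KO early, 4.7 and 2.3 in WT irradiated and 7.2, 14.9 and 3.7 in WT non irradiated ileum. It passed 10 normalised reads in 1 library alone, mouse 73, and was not tested there.

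Within each mouse, the tissue that held more of a gene was the same in all 12 mice for 3 of the 4 genes and not for Ang4. In log2(value + 1), colon minus ileum was positive for Mptx1 in all 7 KO mice (2.19 to 8.76) and all 5 WT mice (7.41 to 10.85), and for Sycn in all 7 KO mice (3.14 to 9.20) and all 5 WT mice (5.85 to 8.38). Mptx2 was higher in ileum in all 7 KO mice (-8.47 to -3.94) and all 5 WT mice (-7.83 to -6.33). Ang4 was higher in colon in 1 of 7 KO mice, mouse 117, and in 5 of 5 WT mice. Its differences were -3.43, -6.32 and -2.64 in KO late, -0.79, 0.59, -2.51 and -1.11 in KO early, 2.22 and 1.59 in WT irradiated and 1.98, 2.78 and 2.93 in WT non irradiated mice. The KO late and WT mice thus fell on opposite sides of 0. These differences contain the colon values that chose the genes, and no test is given.

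**Figure D2:**
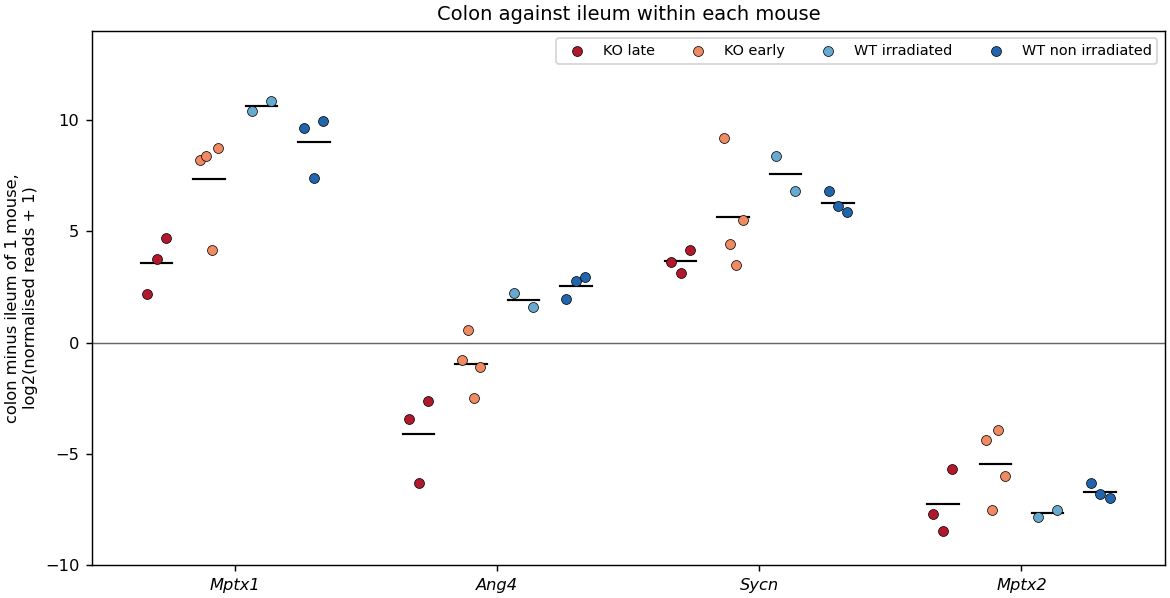
Colon minus ileum in log2(normalised reads + 1) for each of the 12 mice, by gene and group, with the group mean as a bar and a line at 0, where both tissues are equal. Mptx1 and Sycn lie above the line and Mptx2 below it in every mouse, while Ang4 lies below it in the 3 KO late mice, at -6.32 to -2.64, and above it in the 5 WT mice, at 1.59 to 2.93.

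Ang4, found in both tissues, can be set beside Mptx2 in ileum and Mptx1 in colon. In ileum the ratio of Mptx2 to Ang4 reads lay between 0.218 and 1.99 with a median of 1.09 over 12 libraries. In colon the ratio of Mptx1 to Ang4 reads lay between 0.797 and 21.3 with a median of 6.495. It was 6.16 to 6.51 in WT non irradiated colons and 4.56 to 8.18 in WT irradiated ones, and spread to 4.53 to 21.3 in KO early and 0.797 to 10.2 in KO late colons. These are ratios of reads and not of molecules, and the libraries share size factors and mice.

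**Figure D3:**
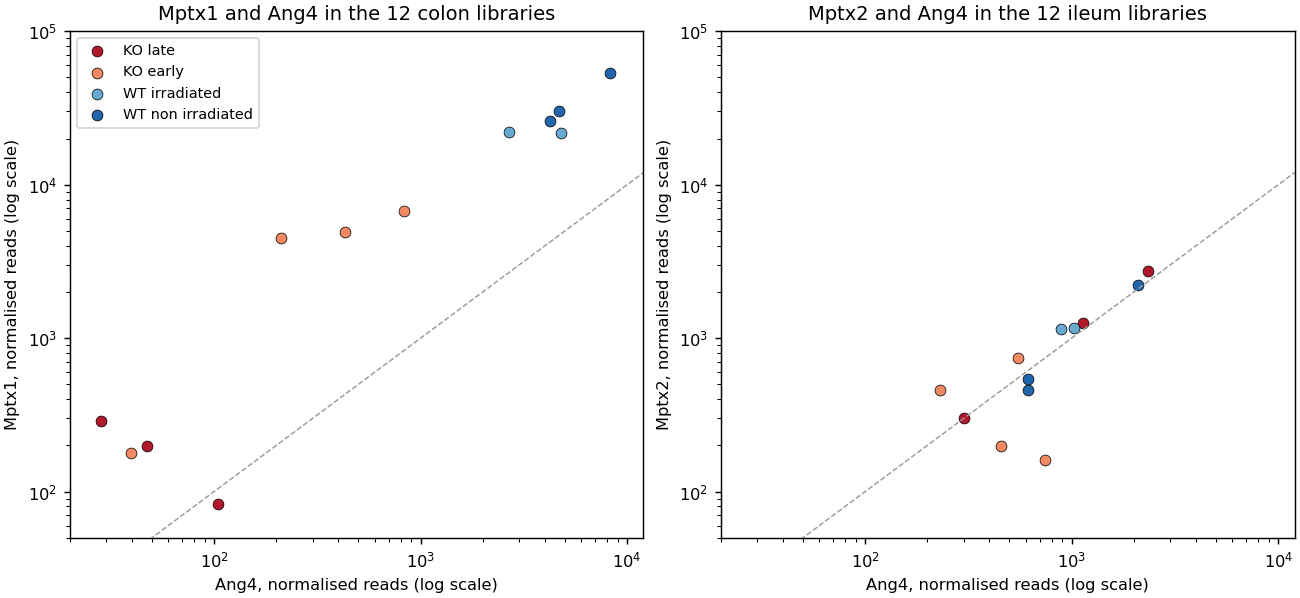
Ang4 against Mptx1 in the 12 colon libraries and against Mptx2 in the 12 ileum libraries, in normalised reads on log axes, coloured by group, with a dashed line where both genes are equal. In colon the KO libraries spread to low values of both genes, down to 28.3 for Ang4 and 83.0 for Mptx1. In ileum Mptx2 lies between 161.8 and 2729.5. There the KO early libraries lie below the WT irradiated pair in both genes, and all other pairs of groups overlap.

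The genes most like each member were found by the mean absolute difference in log2 between profiles over the 24 libraries, each centred on its own mean, among 19588 genes. These genes share the libraries and the tissue contrast, and closeness says nothing of shared function. Since Mptx1, Ang4 and Sycn were picked for low values in the same KO colons, closeness among them restates that choice. Nearest to Mptx1 were Tgm3, a transglutaminase (1.29), Sult1a1, a sulfotransferase (1.52), Cyp2d12, a cytochrome P450 (1.73), and Hoxb13, a homeobox gene of the hindgut (1.73). Sycn had Tgm3 (0.84), Slc37a2, a sugar phosphate transporter (0.89), Sult1a1 (0.91) and Cyp2d12 (0.99). Sycn itself stood at 1.35 from Mptx1, second among all genes.

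Mptx2 was close to genes of Paneth cells, namely Lyz1, which encodes Paneth cell lysozyme (0.44), and Defa22, which encodes an alpha-defensin (0.58), with the further gene AY761184 (0.55). Lyz1 averaged 9400 normalised reads in KO late, 2251 in KO early, 8928 in WT irradiated and 10132 in WT non irradiated ileum, and at most 145.3 in any colon. Ang4 had no such close companion. Its nearest genes were Clps, which encodes colipase (0.85), the granins Chga (1.03) and Chgb (1.199), and the protease gene Prss23 (1.13). Over the 12 colon libraries alone, an alternative, Ang4 and Mptx1 were each other's nearest gene of all compared, at 0.73, a description of the values that chose both.

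Prss23 and Clps, like Ang4, had their lowest means in the KO colon groups. Prss23 averaged 56.0 normalised reads in KO late colon, 137 in KO early, 1222 in WT irradiated and 1393 in WT non irradiated colon, while its ileum means were 1293 in KO late, 1091 in KO early, 1319 in WT irradiated and 1292 in WT non irradiated mice. Clps averaged 4.57 in KO late, 7.53 in KO early, 71.9 in WT irradiated and 114 in WT non irradiated colon, and between 23.3 and 119 in the ileum groups.

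**Figure D4:**
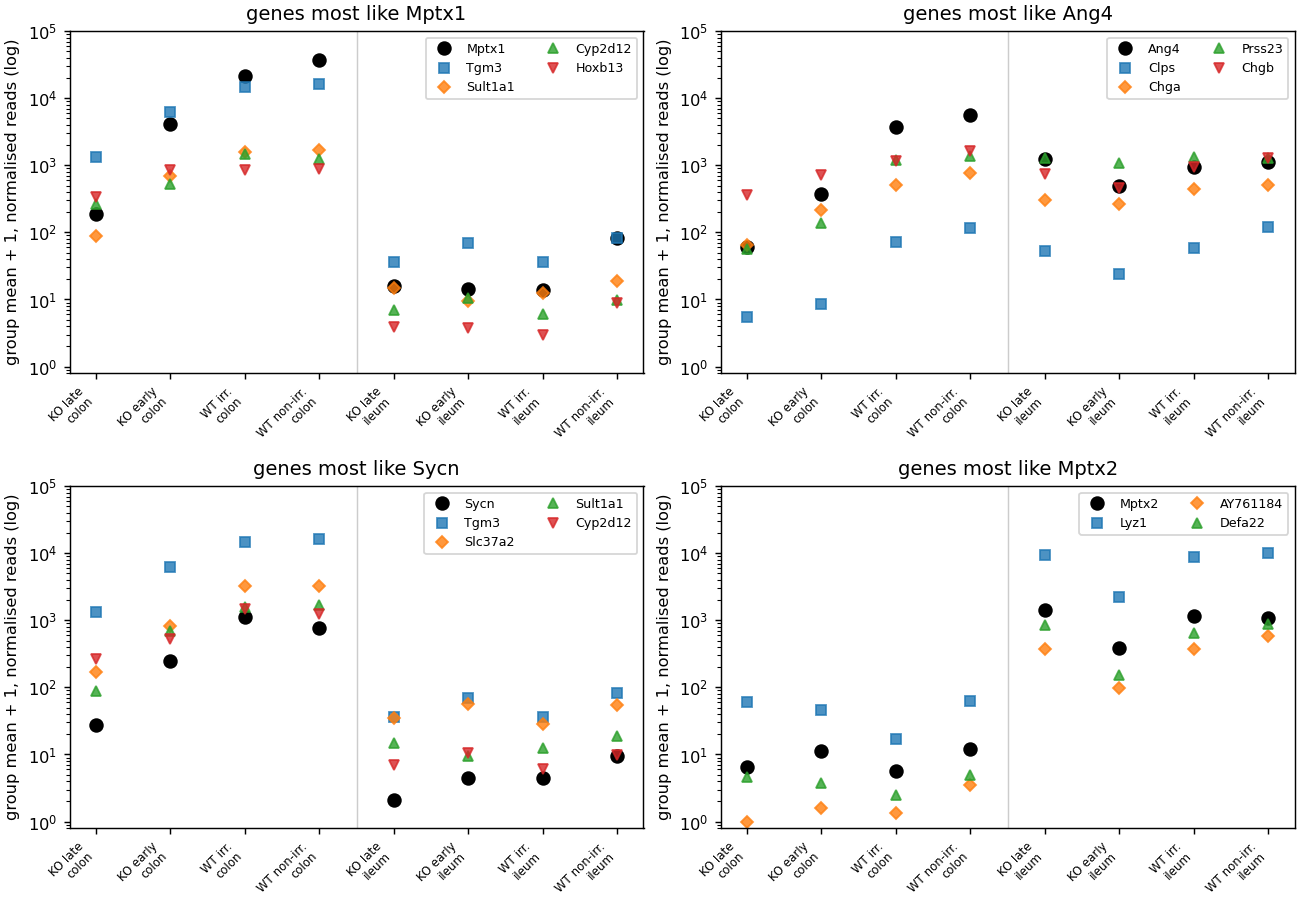
Group means plus 1 in normalised reads (log axis) of each of the 4 genes (black) and of the genes most like it (colours), in the 8 groups, colon left and ileum right. Lyz1, Defa22 and AY761184 are lowest in the KO early group among the ileum groups, as Mptx2 is, and Clps, Chga, Prss23 and Chgb are lowest in KO late colon, as Ang4 is.

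Relatives of the 4 genes were counted from lists drawn up with earlier results of these data known. In KO late against WT irradiated colon limma called 1.03% of 19145 genes, 0.642% higher and 0.387% lower (197 genes, and 380 with the mouse as a block). Of 7 other pentraxin genes, 4 were tested and none called by limma or edgeR (0 at an unadjusted p under 0.05), with a median log2 difference of 0.02 against -0.01 over all genes tested. The family was low throughout, and its highest members in colon were Nptx2, which averaged 25.4 normalised reads in KO late colon, against 21.5 in WT irradiated colon, and Nptxr, with 23.4 in KO late, against 22.2 in WT irradiated colon. Crp and Apcs, the classical short pentraxins, averaged at most 4.57 in any group.

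Of 24 RNase A family genes and their inhibitor in the table, 6 were tested in colon. Rnase1, a secreted ribonuclease, was the 1 called, and rose by 2.91 ± 0.61 in log2 (limma adjusted p = 0.0366), with 17.5 ± 13.0 normalised reads in KO late colon, against 1.15 ± 0.49 in WT irradiated colon. The WT irradiated libraries held 0.8 and 1.5 normalised reads of it, so the fold depends on the pseudocount. It averaged 6.37 in WT non irradiated colon, and lost the call when any 1 mouse was left out (adjusted p from 0.0608 to 0.431). Ang, the canonical angiogenin, averaged 121 ± 34.9 in KO late, 171 ± 30.2 in KO early, 230 ± 25.3 in WT irradiated and 271 ± 49.5 in WT non irradiated colon without a call. Rnase4, which shares its promoters with Ang in mouse, averaged 570 in KO late colon, against 1001 in WT irradiated colon, and had no call either. Ang2, Ang5 and Ang6, the close relatives of Ang4, averaged at most 7.80 in any group. Rnh1, the ribonuclease inhibitor, averaged 759 in KO late and 769 in WT irradiated colon.

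Of 18 genes of regulated granule secretion, the process in which Sycn is known to act, all were tested and 1 was called in that comparison. Chga, the granin of enteroendocrine cells, fell by 3.03 ± 0.42 in log2 (limma adjusted p = 0.00351), with 63.6 normalised reads in KO late colon, against 501 in WT irradiated colon, and was called in 3 of the 5 runs with 1 mouse left out. The median of the 18 was -0.15. Zg16, a zymogen granule protein that goblet cells secrete, averaged 27402 in KO late and 29078 in WT irradiated colon. The syntaxin gene Stx3 averaged 1638 in KO late and 1646 in WT irradiated colon, and the small GTPase gene Rab27b 1618 in KO late and 1702 in WT irradiated colon. Sytl2, a Rab27 effector, averaged 3216 in KO late and 3350 in WT irradiated colon, and these 4 were not called.

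Cell type lists were counted in the same comparison. Of 12 goblet cell genes Klk1, a kallikrein, was the 1 called and fell by 2.47 ± 0.52 in log2 (limma adjusted p = 0.0366), and the list summed to 68088 to 168680 normalised reads in KO late colons, against 155040 to 461130 in WT irradiated colon. Of 10 colonocyte genes, 2 fell: the phosphate transporter gene Slc20a1 by 3.41 ± 0.53 (limma adjusted p = 0.00788) and Slc37a2 by 4.20 ± 0.72 (limma adjusted p = 0.0150). The colonocyte list summed to 38492 to 77650 in KO late and 114030 to 122990 in WT irradiated colon. Of the 6 Paneth cell genes tested in colon, 2 rose: Pla2g2a, a secreted phospholipase, by 2.38 ± 0.36 (limma adjusted p = 0.00741) and the matrilysin gene Mmp7 by 3.05 ± 0.57 (limma adjusted p = 0.0217). Lyz1 averaged 60.4 in KO late colon, against 16.3 in WT irradiated and 61.7 in WT non irradiated colon, and Itln1, an intelectin gene of the same list, 46.9 in KO late, against 108.7 in WT irradiated and 232.3 in WT non irradiated colon, both with no call. The part of goblet cell and colonocyte markers in the values of Mptx1, Ang4 and Sycn was not tested. Slc10a2, the ileal bile acid transporter gene, was the 1 gene of the ileal enterocyte list called and fell by 2.78 ± 0.47 (limma adjusted p = 0.0143). S100a8 was the 1 leukocyte marker of 12 called and rose by 8.91 ± 1.65 (limma adjusted p = 0.0203), which edgeR did not call (adjusted p = 0.100).

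The exocrine pancreas list was counted because Sycn is best known there. Of its 17 genes 11 were tested in colon, and Clps alone was called, with a fall of 3.58 ± 0.71 in log2 (limma adjusted p = 0.0305). The defining pancreatic genes were near the floor in WT irradiated colon, where Cpa1 averaged 7.75, Prss2 4.10 and Pnlip 7.80 normalised reads beside 1135 for Sycn. Cela1, which lower gut epithelium also expresses, averaged 187 in KO late and 878 in WT irradiated colon, with no call.

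Leaving out 1 mouse ended many of these calls: Klk1, Mmp7, Clps and Rnase1 were called in none of 5 such runs, Slc37a2, Slc10a2 and S100a8 in 2, Pla2g2a in 3 and Slc20a1 in 4. With the receptor level as a covariate limma kept the calls of Chga (adjusted p = 0.0123) and Pla2g2a (adjusted p = 0.0111), and those of Klk1, Mmp7, Clps, Rnase1, Slc20a1, Slc37a2, Slc10a2 and S100a8 were lost, with adjusted p from 0.0689 (Slc10a2) to 0.248 (Klk1) and a log2 difference of -2.64 for Slc37a2. That level was higher in every KO late colon than in any other colon, so a lost call cannot be assigned to the covariate or to the group. Without mouse 59 limma called 11 genes in all in that comparison. In KO early against WT irradiated colon, where 0.204% of genes were called (0.167% higher and 0.0366% lower), Pla2g2a was the 1 list gene limma called and rose by 2.49 ± 0.34 (limma adjusted p = 0.00679). edgeR called it as well and also Clps, at -3.25 in log2 (edgeR adjusted p = 0.0464, limma adjusted p = 0.120), where it called 0.0575% of genes lower. In KO late against KO early colon limma called 0.00522% of genes, a single gene that was lower and is in no list. In ileum limma and edgeR called none of the 108 list genes tested. DESeq2 called 3 in KO early against WT irradiated ileum, all 3 lower, where it called 0.999% of all genes. It called 14 in KO late against KO early ileum, 2 of them lower, where it called 7.02% of all genes. By limma, an unadjusted p under 0.05 was reached by 1 of the 108 list genes in KO late against WT irradiated ileum. For KO early against WT irradiated ileum it was 34, and for KO late against KO early ileum 35. For WT irradiated against WT non irradiated ileum it was 2. Of all genes tested, 0.821%, 24.9%, 24.6% and 0.978% reached that p in the same 4 comparisons.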

How the data were processed

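RNA of sorted colon and ileum epithelium was sequenced as 50-base single reads in 24 libraries. Per the submitters' processing notes, HISAT 0.1.6, HOMER, bcl2fastq and build mm9 were used; neither notes nor labels state whether counting used strand. The labels name both polyA RNA and a ribosomal depletion kit for total RNA. The deposited values are a normalised signal, reads per gene divided by a size factor per library; the steps between low values (under 40) were whole reads in 100% of cases within 0.06, and these recovered counts of reads from the deposited table entered edgeR and DESeq2. The ribosomal RNA precursor gene Rn45s took 0.0642% to 29.4% of reads.

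Groups came from the sample titles. The test was limma 3.58.1 with a trend on log2(value + 1), per tissue, with 4 groups sharing the spread, genes at 10 normalised reads or more in 2 or more libraries (19145 in colon, 19122 in ileum), and Benjamini-Hochberg adjustment over all of them at 0.05; Secisbp2 holds 2 rows. R 4.3.3, edgeR 4.0.16 and DESeq2 1.42.0 gave alternatives. The limma fit was also run on simulated reads with the same dispersion for every gene and no mouse effect. Such data are simpler than these, so that run does not show how the fit performs here. Colon and ileum of 1 number are the same mouse per the labels; their deviations correlated between -0.362 and 0.557 (median 0.221), above 0.1 in 5 of 10 mice, and the block used a correlation of 0.324. No replicates agreed within sampling noise (lowest chi-square per gene 16.5 over 26 pairs). Whether mice within a group came from separate experiments is not stated, so p-values measure the spread between these mice.

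The members and lists were chosen with earlier results of these data known. Named from each list were the 4 genes with the highest mean and those limma called; for each member, the 4 genes of nearest profile, passing over predicted names (for Mptx2, 1 of the 4 is not reported here). Other genes named (Crp, Apcs, Ang2, Ang5, Ang6, Cpa1, Prss2, Pnlip, and Lyz1 and Itln1 in colon) were chosen after their values were seen, and genes of some lists are named in part. RefSeq sequences and transcript lengths were matched by symbol (4 of 4 members). Comparisons with the same WT irradiated mice share their controls.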

Additional observations from a re-analysis of the deposited data

Results flagged for a closer look

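Mptx1 had 179.4 normalised reads in the colon of KO early mouse 118, against 4493.7 to 6781.0 in the other 3 mice of that group. The gap took 0.887 of the group's range in log2, above Dixon's critical value for 4 samples. Sult1a1, 1 of the genes nearest to Mptx1, had 2.2 normalised reads in the ileum of KO early mouse 100, with a ratio of 0.844. In that library 1 read was worth 2.22 normalised reads, so the flagged value is 1 read. These 2 flags came from 32 groups checked, and chance flags about 1 in 20. Ang4 in colon minus ileum averaged -4.13 in log2 in the KO late mice and 2.30 in the WT mice, with the 3 KO late mice and the 5 WT mice on opposite sides of 0. The difference between the groups was not tested, since the colon values chose the gene.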

How the results depend on the processing

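Of 252 alternative values of the 4 genes in colon, 250 moved by less than the spread between replicates; with receptor reads as a covariate Sycn was -2.77 in KO late against WT irradiated and -1.43 in KO late against KO early. With pseudocount 5, colon minus ileum became 2.32 for Sycn in KO late, 10.26 for Mptx1 and -6.91 for Mptx2 in WT irradiated, and -6.01 for Mptx2 and 5.69 for Sycn in WT non irradiated mice. In ileum no alternative brought a member past the threshold (lowest adjusted p 0.112), and 153 of 189 values kept their direction.

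Direction turned for some differences near 0. In colon, Mptx2 ranged over the alternatives from -0.27 to 0.78 in KO late against WT irradiated, -0.30 to 1.14 in KO early against WT irradiated, -0.92 to 0.50 in KO late against KO early and -1.19 to 0.44 in WT irradiated against WT non irradiated, and Sycn in the last of these from -0.83 to 1.53. The ileum differences follow. In KO late against WT irradiated, WT non irradiated as control gave -2.23 for Mptx1, 0.30 for Mptx2 and 0.0097 for Ang4, both WT groups gave -1.09 for Mptx1 and 0.052 for Mptx2, edgeR gave 0.31 for Mptx2 and 0.39 for Ang4, DESeq2 gave 0.32 and 0.41 for the same genes, and the receptor covariate gave 0.33 for Ang4. In KO early against WT irradiated, Mptx1 was 0.0030 with pseudocount 5, 0.069 with library total scaling, 0.28 with the covariate, 0.026 by edgeR and 0.11 by DESeq2; in KO late against KO early it was -0.073 with the covariate. Ang4 in WT irradiated against WT non irradiated was -0.069 with library total scaling and -0.073 with the covariate, -0.23 by edgeR and -0.22 by DESeq2. With 1 mouse left out, KO late against WT irradiated ranged from -0.22 to 0.51 for Mptx1, -0.91 to 0.68 for Mptx2 and -0.71 to 0.77 for Ang4, KO early against WT irradiated from -0.22 to 0.21 for Mptx1, KO late against KO early from -0.22 to 0.52 for Mptx1, and WT irradiated against WT non irradiated from -0.24 to 0.64 for Ang4. The cause was not tested.

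Counts of genes called moved more. KO late against WT irradiated colon gave 197 genes, and 327 with library total scaling, 476 with WT non irradiated and 788 with both WT groups as control, 82 with the covariate, 798 by DESeq2, and 11 (without mouse 59) to 105 with 1 mouse left out. KO early against WT irradiated colon gave 39, and 107 with WT non irradiated and 207 with both WT groups as control, 100 with the covariate, 236 by DESeq2, and 3 to 73 with 1 mouse left out (3 without mouse 59, 4 without mouse 61). KO late against KO early colon gave 1, and 0 without a filter and by edgeR, 6 with library total scaling, 3 with 2 groups only, 9 with the covariate, 206 by DESeq2, and 0 to 16 with 1 mouse left out. In ileum DESeq2 called 191 genes in KO early against WT irradiated, 1342 in KO late against KO early and 2 in WT irradiated against WT non irradiated; the covariate gave 6 and 1327 in the first pair of these, and 2 groups only gave 2 in KO late against KO early.

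With the replicate block of mouse, limma called 380 genes in KO late against WT irradiated colon, 82 in KO early against WT irradiated colon, 10 in KO late against KO early colon and 353 in KO late against KO early ileum; the block changed no call of the 3 genes tested in ileum and left the other counts of calls at 0.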
